A study of Mus musculus with 2 samples.

Results

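Interferon-stimulated and sensor genes were followed through 2 single-cell RNA libraries of the mouse dentate gyrus, a hippocampal region whose radial glia are the source of granule neurons and astrocytes. The 35 genes were listed by function, as receptors, sensors, transcription factors and induced effectors of the interferon response. Of these, 33 matched a row by gene symbol among the 32285 genes counted, and Mx1 and Mx2 matched no row and were not analysed here. The Setdb1_cKO library came from mice with a conditional knockout of Setdb1, which encodes a histone methyltransferase that silences chromatin through H3K9 trimethylation, and the control library came from wild type mice. Both were taken at postnatal day 5, with 1 library per genotype. The sources used here do not give the Cre driver, the deleted exons or the number of animals pooled in each library.

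Type I interferons bind a receptor made of the chains Ifnar1 and Ifnar2. The receptor activates Stat2, which joins Irf9 in a complex that binds a short DNA element, the interferon-stimulated response element (ISRE), ahead of genes that limit viral growth. Sensors of viral nucleic acid, such as Ddx58 (RIG-I), Ifih1 (MDA5) and the DNA-sensing adaptor Tmem173 (STING), act upstream and lead to interferon production. In brain tissue, microglia, vascular cells and astrocytes are all known to respond to interferon.

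The letters of the ISRE were looked up in promoters of the members, because they are the site through which the receptor is known to act on its target genes. RefSeq promoters (GRCm38.p6, 250 bases before to 50 bases after a start site) were found for 25 of the 33 members, and the ISRE letters, GAAA, any 2 bases and GAAA again, were searched on both strands. They stood in 13 of these 25 (52.0%), against 1079 of all 27025 genes with a promoter entry (3.99%). The members were chosen for their part in the interferon response, so these shares are no test. Stretches ahead of the start site are given for 4 members described below and for Ifit1, with the matched letters in capitals, overlapping matches joined, and TTTC, 2 bases and TTTC marking a match on the other strand. They lie at chr4:156200845-156200926 (minus strand) for Isg15, chr5:92349063-92349132 (minus strand) for Cxcl10, chr8:71537557-71537632 (minus strand) for Bst2, chr10:128270248-128270315 (plus strand) for Stat2 and chr19:34640755-34640843 (plus strand) for Ifit1.
Isg15: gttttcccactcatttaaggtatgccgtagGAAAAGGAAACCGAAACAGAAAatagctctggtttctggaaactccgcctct
Cxcl10: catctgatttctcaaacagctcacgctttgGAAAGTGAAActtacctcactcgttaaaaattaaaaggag
Bst2: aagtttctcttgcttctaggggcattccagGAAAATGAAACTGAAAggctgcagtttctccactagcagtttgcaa
Stat2: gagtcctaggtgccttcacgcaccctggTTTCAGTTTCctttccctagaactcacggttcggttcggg
Ifit1: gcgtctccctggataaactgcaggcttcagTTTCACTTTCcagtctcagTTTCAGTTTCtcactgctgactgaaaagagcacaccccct
The Isg15 stretch held 3 overlapping matches, those of Bst2 and Ifit1 held 2 each, and those of Cxcl10 and Stat2 held 1 each.

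After filtering, 9367 Setdb1_cKO cells with 76358670 UMIs (unique molecular identifiers, 1 per captured transcript) and 10849 control cells with 72996212 UMIs were kept, with medians of 6982 and 5937 UMIs per cell. Cells were assigned to 15 classes by marker genes, UMIs were summed per class and library, and levels are in CPM, the UMIs of a gene scaled to the UMI total of its class. A member counted as measured in a class with at least 30 UMIs over both libraries, and as higher or lower with a ratio of Setdb1_cKO to control at least 1.5-fold away from 1. Intervals are at 95% and cover counting error only. With 1 library per genotype no test was possible, so every difference is between these libraries and has no replicate check. Xist had 1234 CPM in the Setdb1_cKO library and 0.219 CPM in the control library, and Ddx3y had 0 and 57.4 CPM, so sex cannot be told apart from genotype. The libraries shared 68 barcodes, 39 of them among kept cells. The largest share of radial glia lay in a different cluster of a joint clustering in each library: 922 of 1682 Setdb1_cKO cells (54.8%) in cluster 7, and 1018 of 2154 control cells (47.3%) in cluster 6. Astrocytes lay mostly in cluster 1 in both libraries, with 67.7% of 396 Setdb1_cKO cells and 76.5% of 872 control cells.

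Setdb1 itself was lower in the Setdb1_cKO library in radial glia, at 18.5 CPM against 51.0 CPM in control (ratio 0.362, interval 0.312 to 0.419), and in astrocytes, at 13.1 CPM against 38.3 CPM (0.342, 0.243 to 0.471). It was also lower in intermediate progenitors (0.470), neuroblasts (0.534), Cajal-Retzius cells (0.379) and pyramidal or mossy neurons (0.371). The interval included 1 in granule neurons (0.627), oligodendrocyte progenitors (0.981), microglia (0.798), border macrophages (1.42), endothelial cells (1.26) and fibroblasts (1.03).

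Members of the list were higher in Setdb1_cKO radial glia and astrocytes than in their control counterparts, led by secreted and antiviral effectors. In radial glia, 18 of 33 members were measured, 9 were higher and 1 was lower, while 6.08% of the 13348 measured genes were higher and 5.78% were lower. Just above the minimum of UMIs in radial glia stood Tmem173 with 43 over both libraries, and just below it Parp14 with 28. In astrocytes, 14 were measured, 9 were higher and none was lower, against 6.38% higher and 6.38% lower among 11410 genes. The astrocyte difference in the summed effectors was not seen in cells of at most 5% mitochondrial UMIs, at a ratio of 0.990. There 1 control cell held 85 of the 292 control effector UMIs. In these cells Stat2 had a ratio of 1.46 (0.984 to 2.15), Ifitm3 1.30 (0.983 to 1.71) and Cxcl10 2.14 (0.593 to 7.42). Isg15, Bst2 and Ifi27 lay below 1 there, and every one of these intervals included 1. With a stricter cell filter that includes this limit, 6 members were measured in astrocytes and none was higher. At least 2-fold higher were 5 members in radial glia (2.7% of all genes) and 3 in astrocytes (2.39%). The median log2 ratio of the measured members was 0.55 in radial glia, where that of all measured genes was -0.06, and 0.85 in astrocytes, where it was -0.01. Summed over all 33 members, the level was 230 CPM in Setdb1_cKO and 162 CPM in control radial glia (ratio 1.42, 1.35 to 1.501), and 335 CPM in Setdb1_cKO and 220 CPM in control astrocytes (1.53, 1.41 to 1.65).

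**Figure D1:**
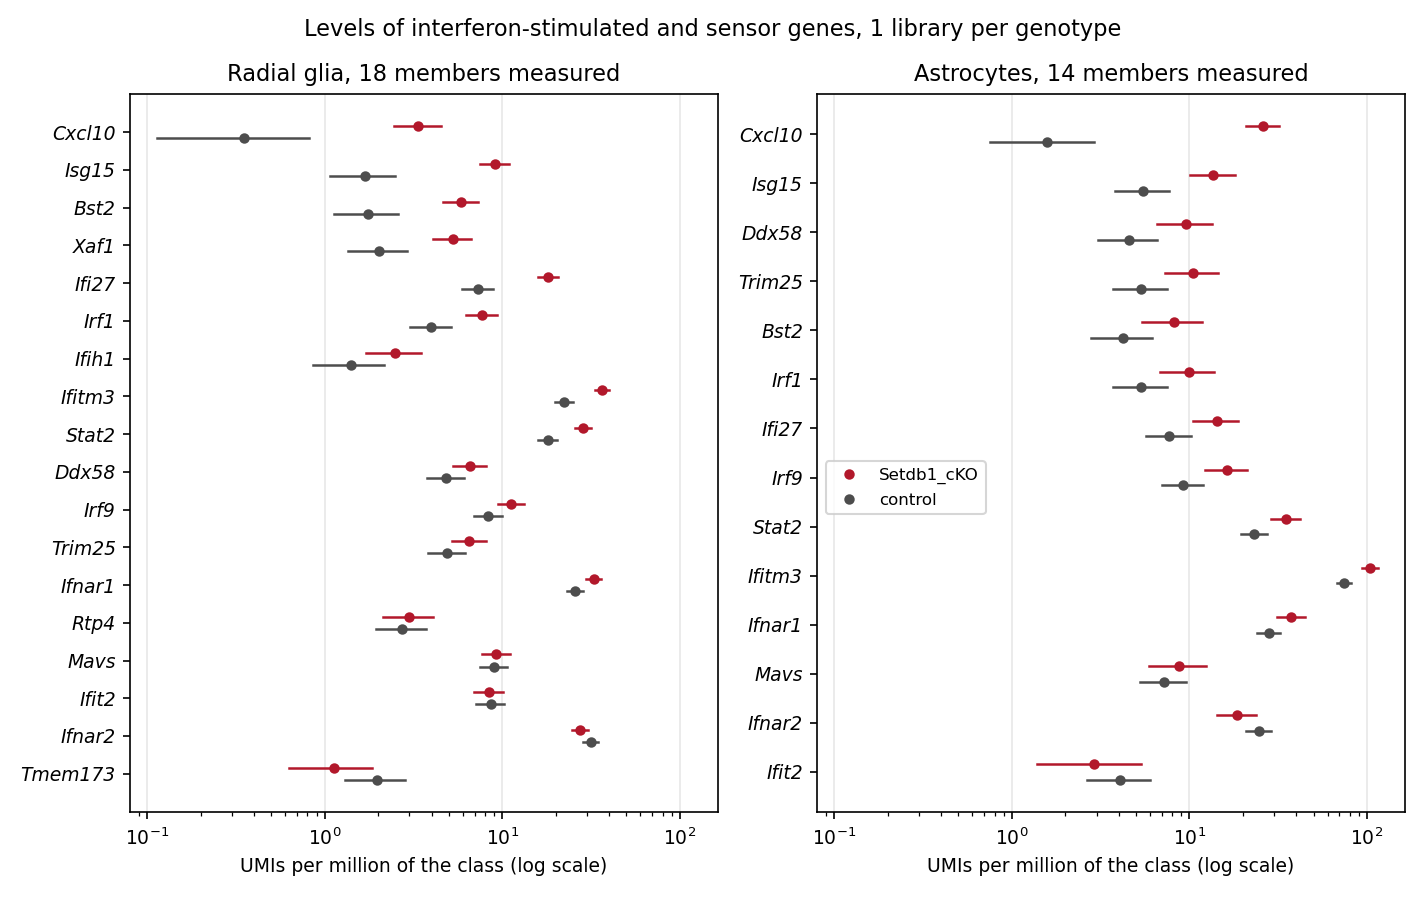
Level of each measured member in CPM (log axis) in radial glia (left, 18 members) and astrocytes (right, 14 members), with points for the Setdb1_cKO and control libraries and exact Poisson 95% intervals for counting error. Cxcl10 and Isg15 stand at the top of both panels with ratios of 9.64 and 5.40 in radial glia and 16.5 and 2.49 in astrocytes.

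The receptor chains differed little in glia. Ifnar1 had 437 UMIs (32.8 CPM) in Setdb1_cKO and 366 UMIs (25.6 CPM) in control radial glia, a ratio of 1.28 (1.11 to 1.47), and Ifnar2 had 366 and 449 UMIs (27.5 and 31.5 CPM), a ratio of 0.873 (0.758 to 1.004). In astrocytes the ratios were 1.34 (1.06 to 1.69) for Ifnar1 and 0.755 (0.556 to 1.02) for Ifnar2. Together the chains had a ratio of 1.06 (0.956 to 1.17) in radial glia and 1.07 (0.889 to 1.28) in astrocytes. Ifnar2 was lower in intermediate progenitors and, short of 1.5-fold, had an interval below 1 in neuroblasts, but not in every neuronal class. It had 54 UMIs (13.3 CPM) in Setdb1_cKO and 183 UMIs (24.4 CPM) in control intermediate progenitors, a ratio of 0.545 (0.394 to 0.741), and 497 and 736 UMIs (25.5 and 37.5 CPM) in neuroblasts, a ratio of 0.681 (0.606 to 0.764). The intervals included 1 in pyramidal or mossy neurons (1.28, 0.938 to 1.78) and Cajal-Retzius cells (0.986, 0.657 to 1.48). In microglia the ratio of Ifnar2 was 1.29 (1.01 to 1.66).

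Among sensors and adaptors, few values lay apart. In radial glia, Ifih1 had 33 UMIs (2.48 CPM) in Setdb1_cKO and 20 UMIs (1.40 CPM) in control, a ratio of 1.77, and Tmem173 had 15 and 28 UMIs (1.13 and 1.96 CPM), a ratio of 0.574. Both intervals included 1, at 0.984 to 3.25 and 0.285 to 1.11. Ddx58 had 33 UMIs (9.59 CPM) in Setdb1_cKO and 29 UMIs (4.55 CPM) in control astrocytes, a ratio of 2.11 (1.24 to 3.60), and its ratio in radial glia was 1.37 (0.985 to 1.90). Mavs, the mitochondrial adaptor that relays the signal of Ddx58 and Ifih1, stood at a ratio of 1.03 in radial glia and 1.21 in astrocytes, with intervals that included 1. Dhx58 and Zbp1 were measured in no class, with 19 and 20 UMIs over all kept Setdb1_cKO cells and 30 and 23 UMIs over all kept control cells.

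The transcription factors were higher as a group in glia, at 48.2 CPM in Setdb1_cKO and 31.0 CPM in control radial glia (ratio 1.56, 1.38 to 1.76) and at 62.5 CPM in Setdb1_cKO and 38.9 CPM in control astrocytes (1.61, 1.33 to 1.94). Stat2, the subunit particular to type I and type III interferon signalling, had 379 UMIs (28.4 CPM) in Setdb1_cKO and 257 UMIs (18.0 CPM) in control radial glia, a ratio of 1.58 (1.34 to 1.86), and a ratio of 1.502 (1.17 to 1.92) in astrocytes. Intermediate progenitors, in which the summed effectors had a ratio of 0.840 (0.648 to 1.08), had 153 UMIs of Stat2 (37.6 CPM) in Setdb1_cKO and 149 UMIs (19.9 CPM) in control, a ratio of 1.89 (1.502 to 2.39). Irf1, induced by type I and type II interferon and by other cytokines, stood at a ratio of 1.92 in radial glia (1.37 to 2.70) and 1.85 in astrocytes (1.12 to 3.07). Irf9, the DNA-binding partner of Stat2, stood at 1.35 in radial glia (1.05 to 1.73) and 1.76 (1.198 to 2.58) in astrocytes. Irf7, the factor that amplifies interferon production, was measured in endothelial cells only, with 15 UMIs (8.19 CPM) in Setdb1_cKO and 24 UMIs (6.42 CPM) in control, a ratio of 1.28 (0.622 to 2.53).

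The induced effectors held the larger ratios. Summed, they reached 102 CPM in Setdb1_cKO and 56.0 CPM in control radial glia (ratio 1.81, 1.66 to 1.98), and 194 CPM in Setdb1_cKO and 112 CPM in control astrocytes (1.73, 1.56 to 1.93). Isg15, a ubiquitin-like modifier of other proteins, had 121 UMIs (9.08 CPM) in Setdb1_cKO and 24 UMIs (1.68 CPM) in control radial glia, a ratio of 5.40 (3.46 to 8.75). Cxcl10, a chemokine that attracts T cells, had 45 and 5 UMIs (3.38 and 0.350 CPM), a ratio of 9.64 (3.84 to 31.1). Bst2, or tetherin, which holds budding virus at the cell surface, had 78 and 25 UMIs (5.85 and 1.75 CPM), a ratio of 3.34 (2.11 to 5.47). These 3 members were the most unequal in radial glia, and their promoter stretches are among those above. Xaf1, a pro-apoptotic gene, had 70 UMIs in Setdb1_cKO and 29 UMIs in control radial glia (5.25 and 2.03 CPM), a ratio of 2.59 (1.66 to 4.13). Ifi27, a small interferon-induced membrane protein gene, had 241 and 104 UMIs (18.1 and 7.29 CPM), a ratio of 2.48 (1.96 to 3.15). Ifitm3, which blocks viral entry, had 488 and 318 UMIs (36.6 and 22.3 CPM), a ratio of 1.64 (1.42 to 1.90). Not every effector was higher. Ifit2 had 112 and 123 UMIs (8.403 and 8.62 CPM) in Setdb1_cKO and control radial glia, a ratio of 0.975 (0.748 to 1.27), and Rtp4 had 40 and 39 UMIs, a ratio of 1.10 (0.689 to 1.75).

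In astrocytes, Cxcl10 had 89 UMIs (25.9 CPM) in Setdb1_cKO and 10 UMIs (1.57 CPM) in control, a ratio of 16.5 (8.56 to 35.6), and its ratio was 2.14 (0.593 to 7.42) in cells of at most 5% mitochondrial UMIs and 43.8 (14.5 to 217) in cells above that share. Isg15 had 47 UMIs (13.7 CPM) in Setdb1_cKO and 35 UMIs (5.49 CPM) in control, a ratio of 2.49 (1.57 to 3.97), and a ratio of 5.96 (3.21 to 11.8) without the cell of each library with the most effector UMIs. Ratios were 1.96 (1.19 to 3.23) for Trim25, the ubiquitin ligase that activates Ddx58, 1.92 (1.09 to 3.39) for Bst2 and 1.85 (1.22 to 2.81) for Ifi27. Ifitm3 stood at 104 CPM in Setdb1_cKO and 74.1 CPM in control, a ratio of 1.41 (1.22 to 1.62), short of 1.5-fold. Classical antiviral members were scarce in both glial classes: Ifit1, Ifit3, Ifit3b, Oasl2, Oas1a, Rsad2 and Usp18 had fewer than 30 UMIs over both libraries in each. Of these, 4 were measured in no class, at 45 Setdb1_cKO and 26 control UMIs over all kept cells for Ifit1, 18 and 10 for Ifit3b, 9 and 12 for Oas1a and 46 and 41 for Usp18. Ifit3 and Ifit3b, and Oas1a and its neighbours, are near-identical copies whose reads may not be assignable to a single gene, so their levels are uncertain.

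Of the 9 members higher in radial glia, 8 had a promoter entry and 6 of these held the ISRE letters (Ifih1, Stat2, Isg15, Bst2, Cxcl10 and Ifitm3), while Irf1 and Xaf1 did not. Of the 9 measured members that were not higher, 7 had an entry and 1 held the letters (Ddx58). In astrocytes the letters stood in 5 of 8 higher members with an entry and in 1 of 5 that were not higher. In both classes the members not higher included Ifnar1, Ifnar2 and Mavs, listed as receptor chains and an adaptor and not as induced effectors. The higher and not higher groups thus differ in role, and no conclusion is drawn from this contrast. A match describes the letters and shows no binding.

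The UMIs of the most unequal members came from few cells. Isg15 was seen in 55 of 1682 Setdb1_cKO and 20 of 2154 control radial glia, and the 10 cells with the most held 51.2% of its UMIs in Setdb1_cKO and 58.3% in control. Cxcl10 was seen in 23 Setdb1_cKO and 5 control radial glia, and in 14 of 396 Setdb1_cKO and 4 of 872 control astrocytes. In Setdb1_cKO astrocytes, 10 cells held 95.5% of the Cxcl10 UMIs, 32 of them in 1 cell, so its ratio there rests on very few cells. Ifi27 was spread more widely, over 168 Setdb1_cKO and 85 control radial glia. After each cell was thinned to 2000 UMIs, Isg15 was found in 1.03% (0.599 to 1.64%) of Setdb1_cKO and 0.338% (0.136 to 0.695%) of control radial glia, against 0 of 435 Setdb1_cKO and 0 of 895 control intermediate progenitors. These counts of 0 allow up to 0.690% and 0.335% of intermediate progenitors with an Isg15 UMI at this thinned depth and set no limit on cells that express it, and before thinning intermediate progenitors held 1 Isg15 UMI in Setdb1_cKO and 4 in control. The median depths before thinning were 7426 and 6229 UMIs in these radial glia and 8371 and 7790 UMIs in these intermediate progenitors. Bst2 was found in 1.27% (0.787 to 1.93%) of Setdb1_cKO and 0.0966% (0.0117 to 0.348%) of control radial glia, and in 1 of 435 Setdb1_cKO and 0 of 895 control intermediate progenitors. The Isg15-positive Setdb1_cKO radial glia held Ifitm3 UMIs in 34.5% of cells and Ifi27 UMIs in 21.8%, against 13.5% and 9.59% of the other Setdb1_cKO radial glia. Stat2 was found about as often in both, in 18.2% and 18.1%, at median depths of 7699 and 7375 UMIs.

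**Figure D2:**
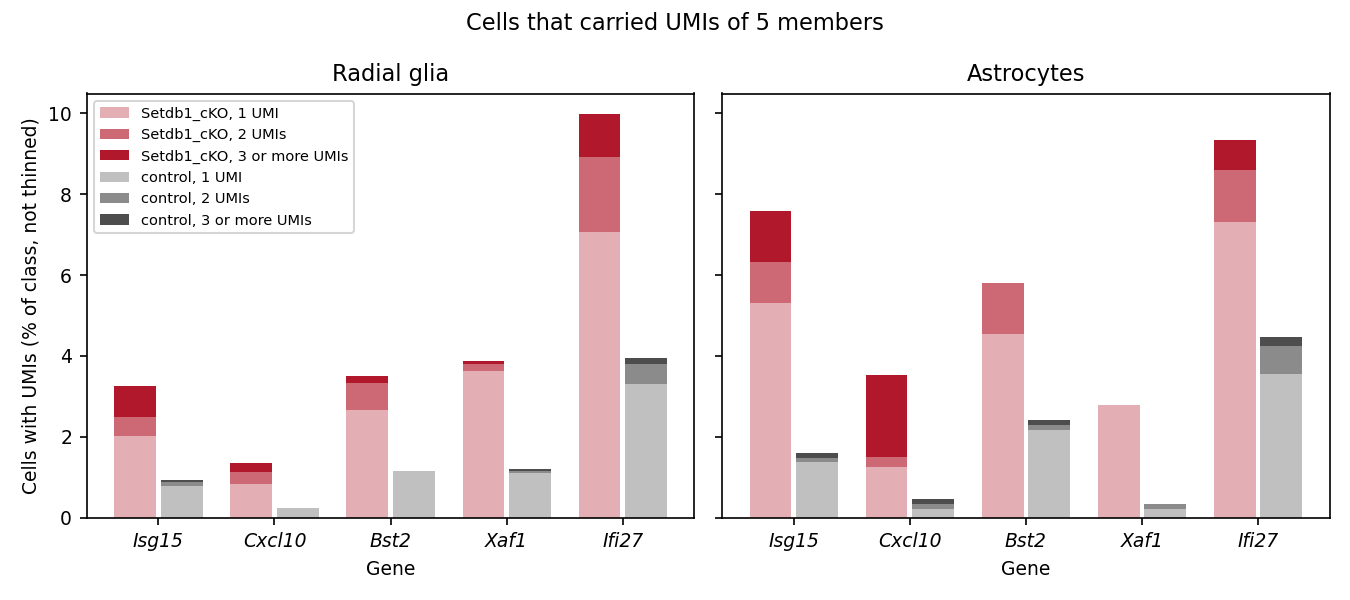
Percentage of radial glia (left) and astrocytes (right) that carried 1, 2, or 3 or more UMIs of 5 members, stacked, with the Setdb1_cKO bar left of the control bar and cells not thinned. Of Isg15, Cxcl10, Bst2, Xaf1 and Ifi27, the last was in the most radial glia, 168 of 1682 in Setdb1_cKO and 85 of 2154 in control, while Isg15 and Cxcl10 were in few cells, some with 3 or more UMIs.

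The glial differences were set beside markers of other cells and beside RNA quality. The 8 microglia markers summed to 9.98 CPM in Setdb1_cKO and 13.7 CPM in control radial glia (ratio 0.730), with Tmem119 at 0 in Setdb1_cKO, and the 8 border macrophage markers to 11.6 and 11.9 CPM (0.970). Endothelial markers had a ratio of 0.326 and fibroblast markers of 0.524 in radial glia, so none of these lists was higher there in Setdb1_cKO. In astrocytes, microglia markers had 14.2 CPM in Setdb1_cKO and 11.5 CPM in control (1.24, 0.848 to 1.81), with Tmem119 and Siglech at 0 in both libraries, and fibroblast markers had 33.1 and 25.0 CPM (1.33, 1.04 to 1.70). Without cells that held any microglia or border macrophage marker UMI, the effector ratio was 1.98 in radial glia and 2.03 in astrocytes. The median mitochondrial share was 4.75% in Setdb1_cKO and 3.75% in control radial glia, and 5.82% and 5.44% in astrocytes. In a split chosen after the values were seen, the effector ratio in radial glia was 1.64 (1.47 to 1.84) in cells of at most 5% mitochondrial UMIs and 1.64 (1.40 to 1.91) in cells of 5 to 10%. In astrocytes it was 0.990 (0.791 to 1.23; 126 Setdb1_cKO and 364 control cells) at or below 5% and 2.06 (1.81 to 2.35; 270 and 508 cells) above it. A single control astrocyte held 85 of the 292 control effector UMIs at or below 5%, and 21 of the 26 Isg15 UMIs. The value of 0.990 thus rests in part on that cell, and the ratio of this range without it was not computed. Under a stricter cell filter that also required at most 5%, the ratios in astrocytes were 0.861 for Isg15, 0.207 for Bst2 and 0.655 for Ifi27, on the other side of 1 with intervals that included it. Isg15 had 9 UMIs in Setdb1_cKO and 26 UMIs in control astrocytes at or below 5%, 21 of them in the control cell named above. The direction of Isg15 there rests on that cell. The part of cell quality in the astrocyte differences was not tested.

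**Figure D3:**
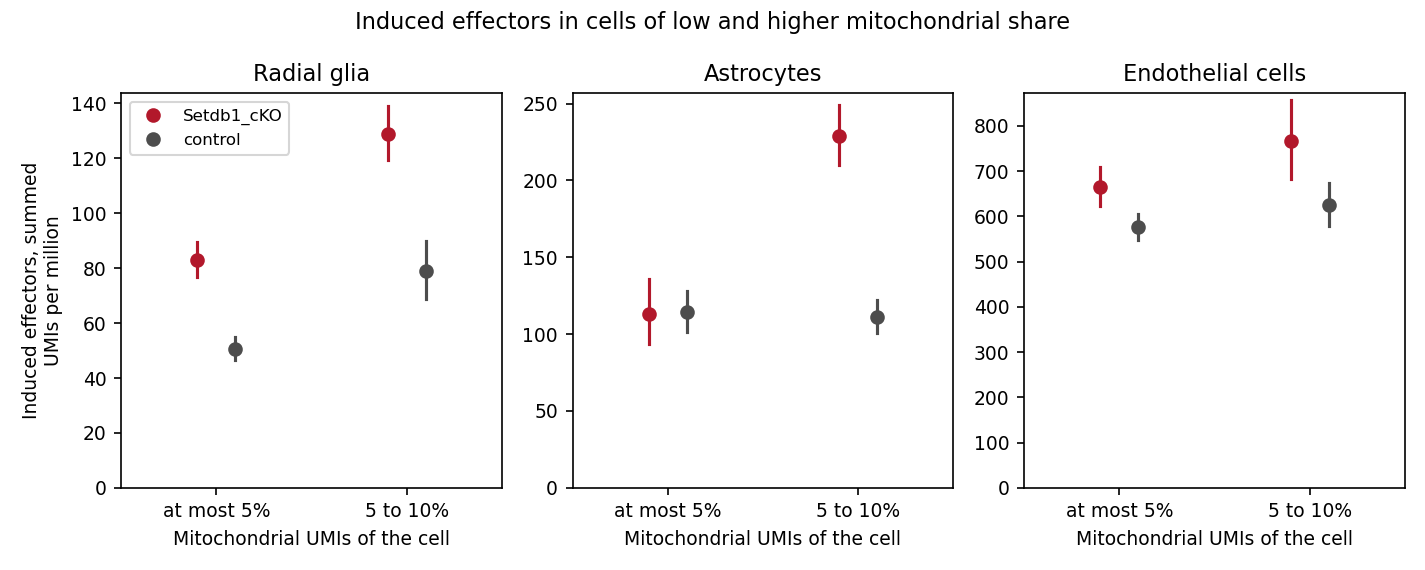
Summed level of the induced effectors in CPM, in cells of at most 5% and of 5 to 10% mitochondrial UMIs, with Setdb1_cKO left of control and exact Poisson 95% intervals. Radial glia are apart in both ranges (ratio 1.64 in each), astrocytes only in the higher range (2.06, against 0.990), and endothelial cells by 1.15 and 1.23. In the lower range of astrocytes, 1 control cell held 85 of the 292 control effector UMIs.

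Within clusters that held at least 20% of their cells from each library, the effector ratio in radial glia was 1.57 (1.40 to 1.76). These shared clusters included cluster 20, with 56 Setdb1_cKO and 10 control radial glia. Clusters 1 and 20 were both named astrocytes by their markers, and the part of this unequal mix in the ratio was not tested. Among the 5 shared clusters with enough cells of both libraries for a ratio, the effector ratio in radial glia was 1.78 (1.41 to 2.25) in cluster 1. Its interval included 1 in the others, at 1.38 in cluster 13, 1.29 in cluster 8, 1.08 in cluster 10 and 0.948 in cluster 18. In astrocytes it was 2.21 (1.89 to 2.59) in cluster 1 and 1.08 (0.918 to 1.26) in cluster 20, where Isg15 had a ratio of 0.829 (0.432 to 1.55). In cluster 20, 1 control astrocyte held 85 of the 346 control effector UMIs and 21 of the 28 control Isg15 UMIs. Both ratios of cluster 20 rest in part on that cell.

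Outside these glia, the sum over all members had a ratio between 0.847 and 1.29 in every class but granule neurons and GABAergic neurons. In granule neurons it was 0.674 (0.467 to 0.983), on 87 UMIs in Setdb1_cKO and 47 UMIs in control, and 1.61 with classes from joint clustering and 1.15 in shared clusters. In GABAergic neurons it was 1.54 (0.891 to 2.78). The sum over all members was 81.7 CPM in Setdb1_cKO and 96.5 CPM in control neuroblasts (ratio 0.847, 0.792 to 0.906), where 9 members were measured, Ddx58 was higher (7.38% of all genes) and Trim25 and Ifitm3 were lower (7.38%), with intervals that included 1 for Ddx58 and Trim25. The largest share of neuroblasts lay in cluster 2 in Setdb1_cKO (41.3%) and in cluster 0 in control (44.5%), and within clusters shared by both libraries the ratio of the sum was 0.463. Ifitm3 had 19 UMIs (0.975 CPM) in Setdb1_cKO and 62 UMIs (3.16 CPM) in control neuroblasts, a ratio of 0.309 (0.175 to 0.524). With classes taken from the joint clustering, its ratio there was 1.08 (0.550 to 2.07), so its direction rests on how neuroblasts were defined. The endothelial markers summed to 5.39 CPM in Setdb1_cKO and 25.95 CPM in control neuroblasts (ratio 0.208, 0.167 to 0.257). Cluster 14, a shared cluster named endothelial cells, held 7 Setdb1_cKO and 45 control neuroblasts. The part of such cells in the neuroblast ratios was not tested. In intermediate progenitors 6 members were measured, with Stat2 higher (4.59% of all genes) and Ifnar2 lower (8.26%), and the sum over all members had a ratio of 1.003 (0.891 to 1.13). No member was higher or lower among 6 measured in Cajal-Retzius cells (5.41% and 4.32%) and 4 in pyramidal or mossy neurons (7.88% and 9.89%). Oligodendrocyte progenitors had 5 measured, none higher (5.21%) and Trim25 lower (6.46%), at 8 UMIs in Setdb1_cKO and 23 UMIs in control, with an interval that included 1. Ifnar2 was lower, with an interval that included 1, among 2 measured in granule neurons (9.14% of all genes higher, 12.3% lower), none differed among 2 in ependymal cells (18.3% and 12.1%), and none was measured in 44 Setdb1_cKO and 24 control GABAergic neurons (8.29% and 8.27%).

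**Figure D4:**
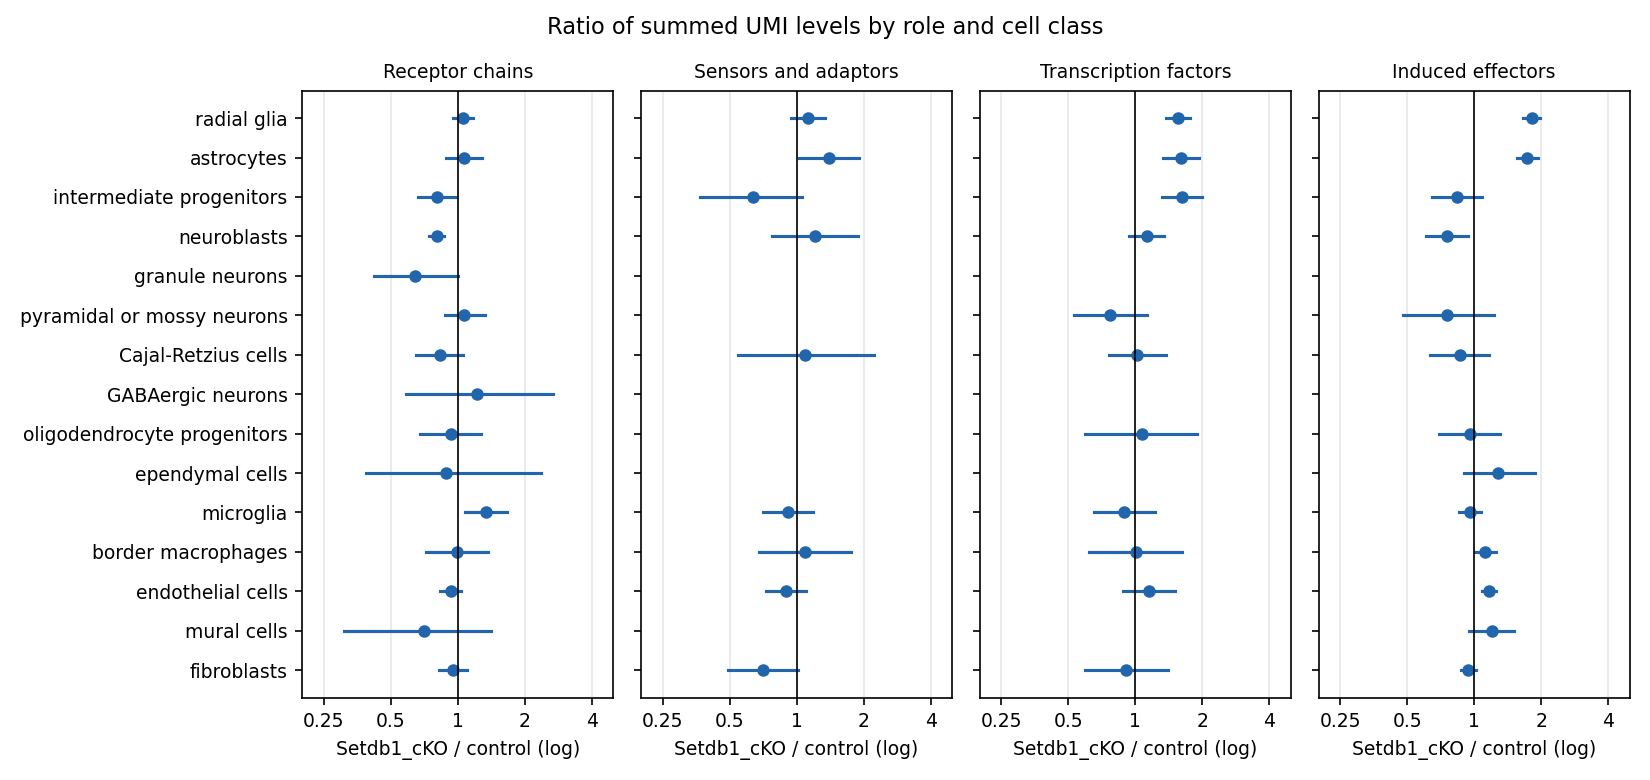
Ratio of the summed level, Setdb1_cKO over control (log axis), for the 4 roles in each cell class, with exact 95% intervals for counting error and classes under 30 UMIs left blank. Transcription factors lie at 1.56 to 1.62 in radial glia, astrocytes and intermediate progenitors, and the effectors at 1.81 and 1.73 in radial glia and astrocytes.

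Border macrophages, mural cells, fibroblasts, endothelial cells and microglia had the highest levels of the effectors in both libraries, and their ratios were closer to 1 than those of radial glia and astrocytes. Border macrophages had 2156 CPM in Setdb1_cKO and 1919 CPM in control (ratio 1.12, 1.01 to 1.25, and 0.980 with called doublets kept), mural cells 1141 and 953 CPM (1.198, 0.944 to 1.51), fibroblasts 846 and 898 CPM (0.942, 0.873 to 1.02), endothelial cells 687 and 590 CPM (1.16, 1.09 to 1.25) and microglia 524 and 547 CPM (0.959, 0.859 to 1.07). In microglia the ratio was 0.858 (0.758 to 0.972) in cells of at most 5% mitochondrial UMIs and 1.43 (1.12 to 1.84) in cells above that share. A single control microglial cell held 111 of the 455 control effector UMIs at or below 5%. The value of 0.858 thus rests in part on that cell, and the ratio of this range without it was not computed. The fibroblast markers summed to 276 CPM in Setdb1_cKO and 131 CPM in control endothelial cells (2.10, 1.85 to 2.38), and their part in the endothelial difference was not tested. In endothelial cells, 22 members were measured, the most of any class, and Ifi44 alone was higher (4.68% of all genes), at 14.2 CPM in Setdb1_cKO and 6.15 CPM in control (2.31, 1.27 to 4.23). None was lower there (5.04%). Oasl2, an oligoadenylate synthetase-like gene, and Rsad2, which encodes viperin, were measured in endothelial cells only, with ratios of 1.02 (0.598 to 1.70) and 1.07 (0.466 to 2.32). Parp14 and Ifi35 were each measured in 3 classes among microglia, border macrophages, endothelial cells and fibroblasts, and every interval included 1. In fibroblasts, 14 were measured and Bst2 alone was higher (7.04%), with 75 UMIs (45.9 CPM) in Setdb1_cKO and 25 UMIs (17.1 CPM) in control, a ratio of 2.68 (1.68 to 4.40), and none was lower (5.62%). Ifit3 was measured in this class only, with a ratio of 1.05 (0.579 to 1.91). In border macrophages, 10 were measured, Bst2, Cxcl10, Rtp4 and Trim30a were higher (8.37%) and Parp14 was lower (10.1%), with intervals that included 1 for Rtp4 and Parp14. Bst2 had 325 CPM in Setdb1_cKO and 178 CPM in control (1.83, 1.32 to 2.54), and Trim30a, an interferon-induced Trim family gene, had 173 and 97.0 CPM (1.78, 1.14 to 2.81). Cxcl10 had 19 UMIs in Setdb1_cKO and 11 UMIs in control border macrophages (2.21, 1.001 to 5.15), and a ratio of 0.703 without the cell of each library with the most effector UMIs. Mural cells had 3 measured, none higher (10.7%) and Ifi27 lower (20.8%), with an interval that included 1.

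In microglia, 16 members were measured, 2 were higher (6.72%) and 3 were lower (9.18%). Ifi27l2a had 61.7 CPM in Setdb1_cKO and 117 CPM in control (0.527, 0.398 to 0.698), Irf9 had 19.9 and 33.7 CPM (0.590, 0.349 to 0.994) and Isg15 had 16 and 33 UMIs (0.324, 0.167 to 0.606). A single control microglial cell held 31 of the 33 Isg15 UMIs. Without the cell of each library with the most effector UMIs, Isg15 had 16 UMIs in Setdb1_cKO and 2 UMIs in control, a ratio of 5.35 (1.26 to 48.0), so its direction rests on that cell. Ifi27 had 67.0 CPM in Setdb1_cKO and 41.6 CPM in control (1.61, 1.11 to 2.37) and Cxcl10 had 61.0 and 35.7 CPM (1.71, 1.15 to 2.59), the Cxcl10 UMIs in 10 Setdb1_cKO and 5 control cells.

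**Figure D5:**
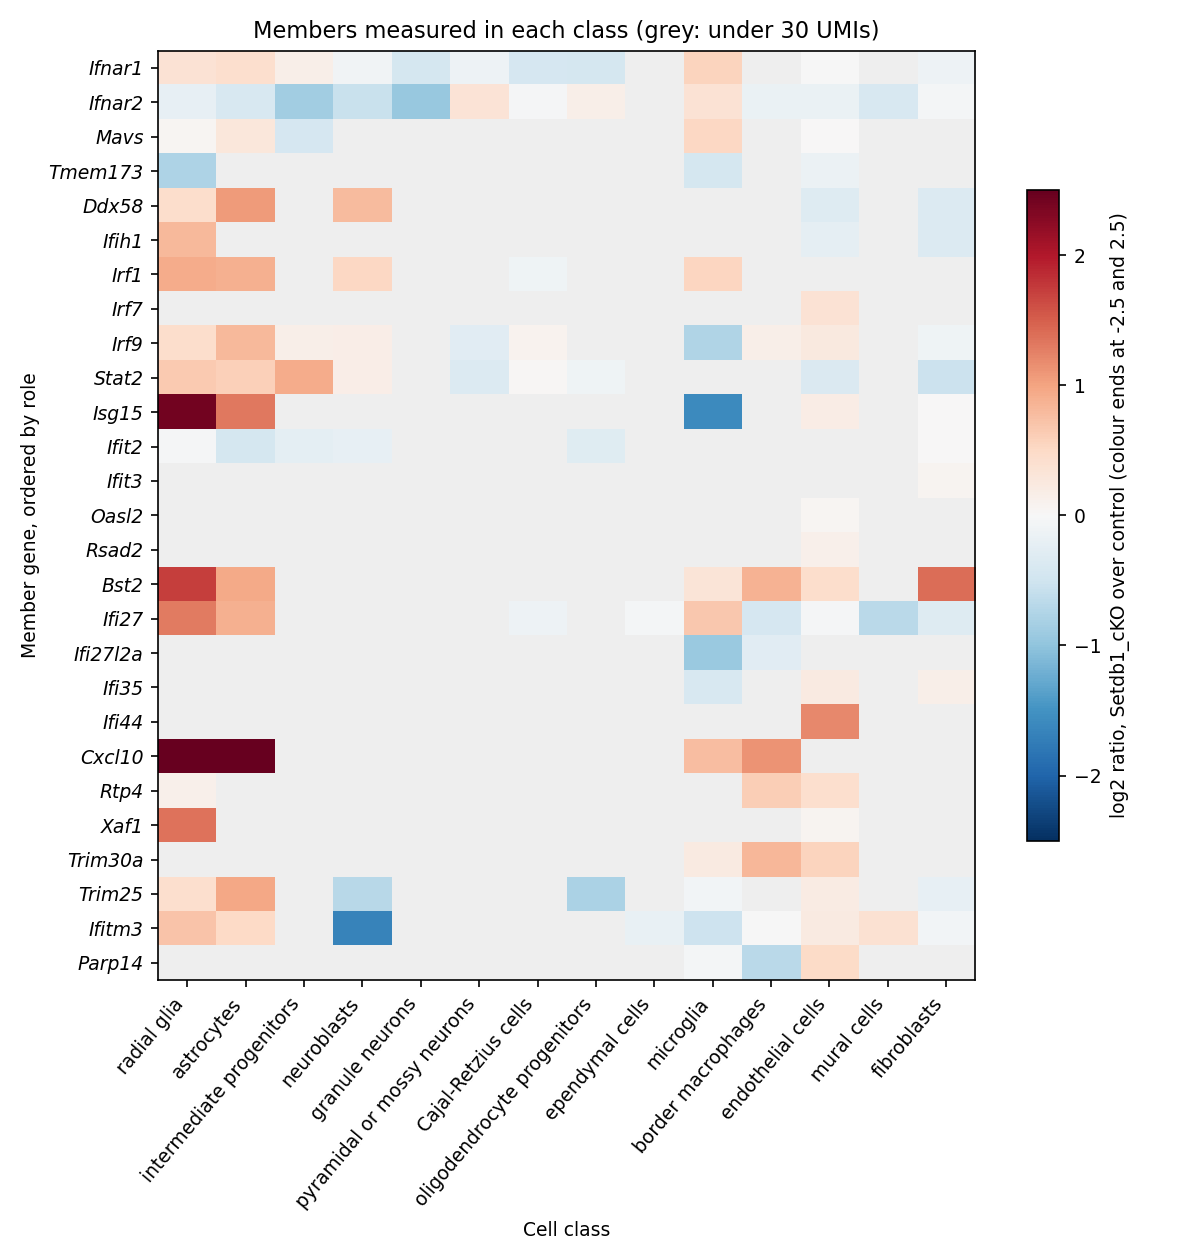
Log2 ratio of each measured member, Setdb1_cKO over control, by cell class, with members ordered by role and cells under 30 UMIs in grey. The darkest red fields are Cxcl10 and Isg15 in radial glia (3.15 and 2.41) and Cxcl10 in astrocytes (3.98), and the darkest blue are Ifitm3 in neuroblasts (-1.67) and Isg15 in microglia (-1.60).

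Other genes of the pathway were taken from a list of 95, of which 92 had a row. In radial glia 44 were measured, 8 were higher (6.08% of all measured genes) and 2 were lower (5.78%). The lower ones were Cgas, at a ratio of 0.450 (0.257 to 0.763), and Ifi203, at 0.414 (0.194 to 0.830). In astrocytes 37 were measured, 10 were higher (6.38%) and 1 was lower (6.38%). The list was less one-sided than the members, with log2 ratios that had medians of 0.05 in radial glia and 0.07 in astrocytes. Socs3, a feedback inhibitor of cytokine receptors, had 400 UMIs (30.01 CPM) in Setdb1_cKO and 99 UMIs (6.94 CPM) in control radial glia, a ratio of 4.33 (3.46 to 5.45), and a ratio of 3.53 (2.92 to 4.28) in astrocytes. Gbp2, an interferon-induced GTPase, had 77 UMIs (5.78 CPM) in Setdb1_cKO and 10 UMIs (0.701 CPM) in control radial glia, and its ratio was 8.25 (4.25 to 17.9). Ifngr2, a chain of the interferon gamma receptor, had a ratio of 2.43 (2.03 to 2.90) in astrocytes and 1.93 (1.73 to 2.15) in radial glia. In intermediate progenitors none of 31 was higher (4.59% of all measured genes) and 9 were lower (8.26%). Among the lower were Cgas (0.396, 0.169 to 0.824), Ifi203 (0.467, 0.278 to 0.752), Ube2l6 (0.437, 0.246 to 0.738) and Herc6 (0.318, 0.0962 to 0.831). In neuroblasts 1 of 29 was higher (7.38%) and 8 were lower (7.38%). Interferon transcripts were at or near 0: Ifnb1, Ifna2, Ifna4 and Ifne had 0 UMIs in either library, and Ifnk and Ifng had 1 UMI each in Setdb1_cKO and 0 in control. A count of 0 over all kept cells allows up to 0.0393 CPM in Setdb1_cKO and 0.0411 CPM in control.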

How the data were processed

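The deposited matrices hold raw UMI counts; their headers name Cell Ranger 7.1.0 as the software the authors used. The submitters' processing notes name mm10 as the build and list Seurat. No source used here gives the annotation release, the counting of introns or the calling of cells. Libraries held 87845965 (Setdb1_cKO) and 82393428 (control) UMIs in 12060 and 14397 barcodes.

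Cells were kept with at least 1000 UMIs, 500 genes and at most 10% mitochondrial UMIs. Scrublet doublets (scanpy 1.11.5, expected rate 8%; 6.05% and 5.02% of scored Setdb1_cKO and control barcodes) were removed. Classes came from marker scores of single cells, with thresholds (score 0.25, or 0.4 for lineage classes, lead 0.05, at least 3 markers) set after a first look at the data. They left 19.9% of Setdb1_cKO and 14.9% of control cells without a class, and 4.48% and 3.54% of classed cells lay within 0.02 of a cut.

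UMIs were summed per class and library. Intervals at 95%, for counting error only, were exact conditional Poisson for ratios, exact Poisson for levels and Clopper-Pearson for shares. Log2 ratios used a pseudocount of 0.5 UMI, and limits at 0 used 3 counts. The interval code was tested on simulated counts. Joint clustering used 2000 variable genes, 30 components, 20 neighbours and resolution 1.0 (leidenalg 0.10.2). No test between genotypes was made.

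The members and lists were chosen with earlier results of these data known. Values are given for members with at least 30 UMIs in a class, first those at least 1.5-fold apart with an interval that leaves out 1, and for at most 6 other pathway genes per class at least 2-fold apart. Alternatives were other cell filters, doublets kept, clustered classes, other scalings, other minimums and folds, and leaving out cells or the highest member.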

Additional observations from a re-analysis of the deposited data

Results flagged for a closer look

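Members whose interval lay above 1 in some classes and below 1 in others are listed here. The differences between classes were not tested. Ifi27 had ratios of Setdb1_cKO to control of 2.48 in radial glia, 1.85 in astrocytes and 1.61 in microglia, and 0.796 in fibroblasts. Ifitm3 had 1.64 in radial glia, 1.405 in astrocytes and 1.17 in endothelial cells, and 0.309 in neuroblasts. Ifnar2 had 1.29 in microglia, against 0.545 in intermediate progenitors and 0.681 in neuroblasts. Irf9 had 1.35 in radial glia and 1.76 in astrocytes, and 0.590 in microglia. Isg15 had 5.40 in radial glia and 2.49 in astrocytes, and 0.324 in microglia, where 31 of 33 control UMIs were in 1 cell.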

How the results depend on the processing

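No paired analysis was possible because each genotype had 1 library. Over all alternatives, 133 values of the summed ratios and counts in the main classes stayed within their interval or within 1.5 times the count, 22 moved and 4 turned round. Of the other values, mostly ratios of single members, 465 stayed, 24 moved and 9 turned round. Causes were not tested.

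At 2-fold in place of 1.5-fold, 5 members were higher in radial glia (2.7% of all genes) and 3 in astrocytes (2.39%). Without the highest member, the ratio of all members was 1.55 in radial glia and 0.800 in intermediate progenitors. With the stricter cell filter (2000 UMIs, 1000 genes, at most 5% mitochondrial UMIs), ratios in radial glia were 1.34 for all members and 1.65 for effectors, and in astrocytes 1.11 and 0.988, with 0 of 6 measured members higher. There Isg15 turned to 0.861, Bst2 to 0.207 and Ifi27 to 0.655 in astrocytes, and all members to 1.01 in fibroblasts. In the split by mitochondrial share, chosen after seeing the data, the effector ratio at or below 5% was 1.64 in radial glia and 0.990 in astrocytes, and above 5% it was 1.64 and 2.06. Among control astrocytes at or below 5%, 1 cell held 85 of the 292 effector UMIs and 21 of the 26 Isg15 UMIs. The effector and Isg15 ratios of these astrocytes rest in part on that cell.

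With classes from joint clustering, effectors had 1.97 in astrocytes, 1.22 in intermediate progenitors (all members 1.18) and 1.003 in neuroblasts, where Ifitm3 had 1.08, and all members turned to 1.61 in granule neurons, against 0.674 with marker classes. Without cells with immune marker UMIs, effectors had 1.98 in radial glia, 2.03 in astrocytes and 0.844 in fibroblasts. With doublets kept, border macrophage effectors had 0.980. In shared clusters only, chosen after seeing the data, effectors had 1.57 in radial glia and 0.254 in neuroblasts, and all members 0.463 in neuroblasts and 1.15, again turned round, in granule neurons. Without the cell with the most effector UMIs, also chosen after seeing the data, microglia had 1.15 for both sums and 5.35 for Isg15, and border macrophages had 0.703 for Cxcl10. The median log2 ratio of all genes was within 0.1 of 0 except in pyramidal or mossy neurons (-0.14). Depth limits the members under 30 UMIs, for which no ratio is read.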
